A study of Rattus norvegicus with 12 samples.

Results

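Levels of 6 microglia and phagocyte genes were followed in whole retinas of Royal College of Surgeons (RCS) rats at postnatal days 21 and 60 (p21 and p60). The genes were *Ptprc*, *Itgam* and *Tyrobp*, taken as general leukocyte genes, and *Cd68*, *Spp1* and *Lgals3*, taken as activation genes. They were picked by Ensembl gene identifier out of the 32883 genes in the count files, and all 6 were found on the chromosome their identifier called for. RCS rats carry a *Mertk* mutation under which the retinal pigment epithelium fails to engulf shed photoreceptor tips, and the photoreceptors then die. The immunocompetent line had the genotype RCS-p+ and was labelled male, and the athymic line had the genotype RCS-p+/Foxn1mu and was labelled female. Each line gave 3 libraries at each age, which were libraries 1, 2 and 3 (immunocompetent) and 4, 5 and 6 (athymic) at p21, and libraries 19, 20 and 21 (immunocompetent) and 22, 23 and 24 (athymic) at p60. All 12 libraries came from degenerating rats, so growing up and degeneration cannot be told apart here, and neither can line and labelled sex.

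Microglia are the resident macrophages of the retina, where they survey the synaptic layers and clear debris. When photoreceptors die, microglia move into the photoreceptor layer, engulf dead cells and are joined by macrophages from the blood. Both cell types carry the genes taken here as general leukocyte genes at all times, though the level per cell need not be constant. Genes of lysosomes, matrix and glycan binding are known to rise when these cells become phagocytic. The division into leukocyte and activation genes was not tested here. In bulk retina, a change in the number of such cells and a change in the RNA of each cell cannot be told apart.

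Each library held between 13852516 and 16725355 counts assigned to genes. Counts of the 6 genes ranged widely, and *Spp1* had between 364 and 748 in each p21 library. *Cd68* had between 10 and 14 counts in each p21 library, and an exact Poisson 95% interval around 10 counts runs from 4.80 to 18.4, which covers counting error only. Some libraries stood apart in other genes. The 48 genes on chromosome Y summed to 328, 316 and 269 CPM (counts per library, scaled to a common size) in libraries 4, 5 and 22, which are labelled female, against 229.2 to 323 CPM in the 6 libraries labelled male. The other labelled females, libraries 6, 23 and 24, had 8.79, 23.2 and 16.1 CPM. Library 4 also held a set of 38 genes, none of them among the 6, chosen because they were far higher there than in the other p21 libraries. This set summed to 18852 CPM in library 4, 7251 in library 19, 2868 in library 24, 2202 in library 6 and 1057 in library 3, and to between 119 and 341 CPM in the other 7 libraries. Results are given below with and without these libraries where a call depended on them. Marker genes of other retinal cell types were not analysed here, since the files carry identifiers without gene names.

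The regions just before the start of 4 of the genes are shown so that genes which rose can be read beside the one which fell. RefSeq sequences on the GRCr8 build were used, with 250 bases before the annotated start written 5′ to 3′ along the gene's strand. The regions were chr13:52259747-52259996 (minus strand) for *Ptprc*, chr1:192089342-192089591 (plus strand) for *Itgam*, chr10:54882442-54882691 (minus strand) for *Cd68* and chr14:5619805-5620054 (minus strand) for *Spp1*. Capitals mark GAGGAA and GGAAGT and their complements TTCCTC and ACTTCC, letters of the kind bound by PU.1 and other ETS factors, which drive much of the myeloid programme.
Ptprc: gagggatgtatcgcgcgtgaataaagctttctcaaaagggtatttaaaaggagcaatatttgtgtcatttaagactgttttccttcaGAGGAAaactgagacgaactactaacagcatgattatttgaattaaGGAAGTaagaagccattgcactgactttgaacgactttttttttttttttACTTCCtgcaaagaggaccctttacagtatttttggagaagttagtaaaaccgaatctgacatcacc
Itgam: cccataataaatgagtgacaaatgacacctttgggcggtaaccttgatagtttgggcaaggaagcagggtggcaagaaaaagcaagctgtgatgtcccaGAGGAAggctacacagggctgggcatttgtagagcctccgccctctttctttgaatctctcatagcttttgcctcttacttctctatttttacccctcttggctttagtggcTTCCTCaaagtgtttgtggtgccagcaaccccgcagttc
Cd68: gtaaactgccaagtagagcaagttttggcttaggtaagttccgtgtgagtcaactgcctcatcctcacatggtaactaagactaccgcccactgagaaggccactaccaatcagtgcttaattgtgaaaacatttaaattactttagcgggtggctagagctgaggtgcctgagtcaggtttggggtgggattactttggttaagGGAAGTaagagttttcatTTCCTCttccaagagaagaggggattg
Spp1: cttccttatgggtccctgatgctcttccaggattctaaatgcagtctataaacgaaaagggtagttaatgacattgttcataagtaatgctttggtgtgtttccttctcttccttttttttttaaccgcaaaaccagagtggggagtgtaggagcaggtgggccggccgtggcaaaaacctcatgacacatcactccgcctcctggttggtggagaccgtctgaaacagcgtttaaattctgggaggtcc
GAGGAA was found once in *Ptprc*, 163 bases before the start, and at 151 and 39 bases before the start of *Itgam*. In *Cd68* it lay 27 bases before the start. GGAAGT was found at 117 and 67 bases before the start of *Ptprc* and at 45 bases in *Cd68*. *Spp1* held neither of them in this window. Both are short and common, and across the 33469 RefSeq promoters of this length GAGGAA was in 23.3% and GGAAGT in 19.2%. A search on both strands for TGANTCA, the AP-1 type of site, found matches in *Cd68* alone of these 4, at 205 and 80 bases before its start, and 6.34% of all promoters held it. *Tyrobp* and *Lgals3* were not in the promoter table.

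From p21 to p60, 5 of the 6 genes rose and *Spp1* fell. Over all 12 libraries with line as a covariate, *Itgam* rose 6.57-fold, *Tyrobp* 4.6-fold, *Cd68* 4.26-fold, *Lgals3* 2.98-fold and *Ptprc* 2.44-fold, and *Spp1* fell to 0.457 of its p21 level. All 6 passed at 0.05 in the quasi-likelihood test of edgeR, with p-values adjusted by Benjamini-Hochberg over all genes. Changes were common in this tissue, where 62.0% of 16069 genes tested passed in either direction, 31.7% higher and 30.3% lower. A call on its own therefore says little about these genes, and the size of the change placed them better. Of the 16069 genes, 48 had a higher log2 fold change than *Itgam*, 92 than *Tyrobp*, 108 than *Cd68*, 261 than *Lgals3* and 461 than *Ptprc*, while 717 had a lower one than *Spp1*. Without library 4, described above, the log2 fold change of *Lgals3* over both lines was 2.21 in place of 1.58. The median over all genes was a log2 fold change of 0.015.

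**Figure D1:**
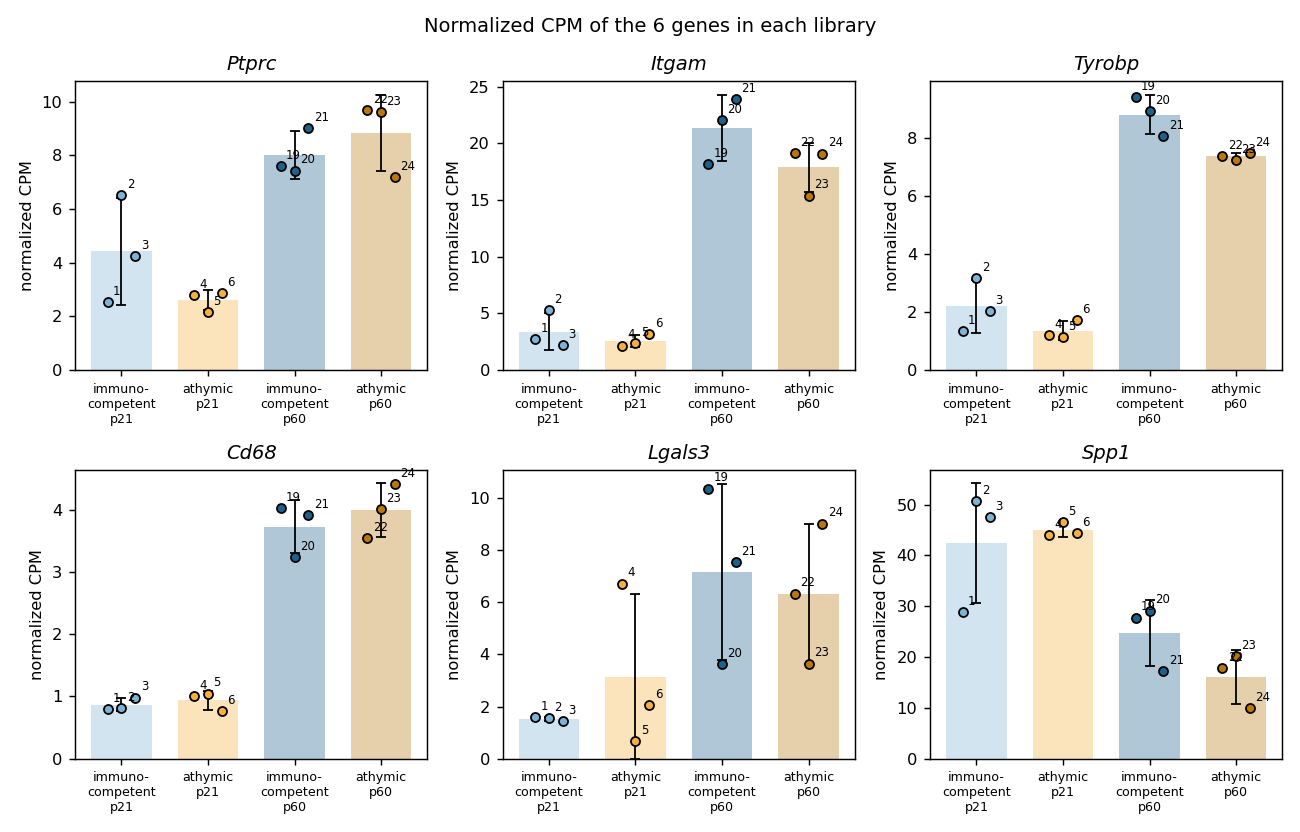
Normalized CPM of each gene in each of the 12 libraries, by line and age, with a point for each library and the 3 libraries of a group above its label. The p60 points of *Cd68*, *Itgam*, *Ptprc* and *Tyrobp* all lie above the p21 points, those of *Spp1* lie mostly below, and library 4 of *Lgals3* (6.72 CPM) reaches into the p60 range.

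**Figure D2:**
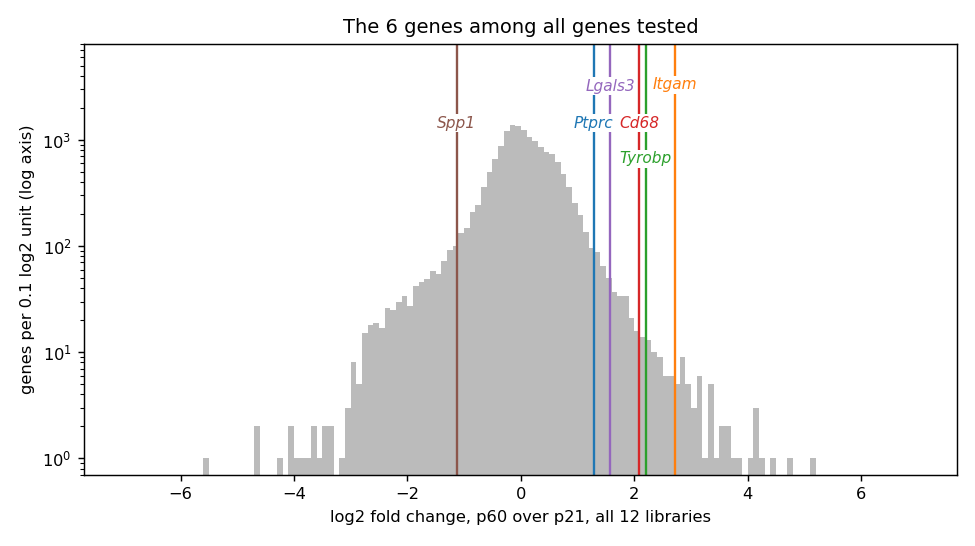
Histogram of log2 fold changes from p21 to p60 for all 16069 genes tested over the 12 libraries, with a log axis for the number of genes and the 6 genes marked. *Itgam* (2.72), *Tyrobp* (2.20) and *Cd68* (2.09) lie far out on the right, and *Spp1* (-1.13) lies on the left.

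Among the general leukocyte genes, *Ptprc* encodes CD45, the membrane phosphatase carried by nearly all white blood cells. The gene (ENSRNOG00000000655) lies on chr13:55061562-55173692 of Rnor_6.0, on the minus strand, with 33 merged exons. *Ptprc* had 2.54, 6.51 and 4.23 normalized CPM in immunocompetent libraries 1, 2 and 3 at p21, and 7.59, 7.43 and 9.02 in libraries 19, 20 and 21 at p60. In the athymic line it had 2.79, 2.17 and 2.87 CPM in libraries 4, 5 and 6 at p21, and 9.70, 9.61 and 7.19 in libraries 22, 23 and 24 at p60. Every p60 library lay above every p21 library, although library 2 came close to the lowest of them (exact two-sided permutation test on log2 values of 6 against 6 libraries, p = 0.00216, the smallest this design allows). All 6 p60 libraries were above all 6 p21 libraries in 19.8% of the genes tested, and the ages did not overlap in either direction in 40.4%. In the immunocompetent line *Ptprc* rose by a log2 fold change of 0.84 (SE 0.292, 95% interval 0.19 to 1.5, edgeR adjusted p = 0.0364), in a fit where 25.6% of 15412 genes were called higher. In the athymic line it rose by 1.75 (SE 0.197, interval 1.3 to 2.20, edgeR adjusted p = 0.000144), where 25.3% of 15507 genes were called higher. The immunocompetent call was not firm, since leaving out library 1, 3, 20 or 21 took the edgeR adjusted p to between 0.0615 and 0.105.

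*Itgam* encodes CD11b, the integrin alpha chain of complement receptor 3, which microglia use to bind opsonised debris. The gene (ENSRNOG00000019728) lies on chr1:199495298-199623960, on the plus strand. *Itgam* had 2.70, 5.29 and 2.19 normalized CPM in libraries 1, 2 and 3, and 18.1, 22 and 23.9 in libraries 19, 20 and 21. The athymic values were 2.14, 2.39 and 3.13 CPM in libraries 4, 5 and 6, and 19.2, 15.4 and 19.1 in libraries 22, 23 and 24. The ages were far apart in both lines, where the lowest p60 library (15.4 CPM) was well above the highest at p21 (5.29 CPM, library 2), and the exact permutation p was 0.00216. *Itgam* rose by a log2 fold change of 2.63 (SE 0.280, interval 2.00 to 3.27, edgeR adjusted p = 5.92e-05) in the immunocompetent line and by 2.79 (SE 0.178, interval 2.39 to 3.20, edgeR adjusted p = 5.41e-06) in the athymic line. The gene model of *Itgam* in the files is uncertain. Its 60 merged exons span 128663 bases and fall into 30 exons of 3585 bases in all and 30 exons of 3848 bases, with a gap of 50731 bases between them, where the next largest gap is 10554 bases. Another gene of 30 merged exons, with 3 to 36 counts per library, lies in that gap. In the RefSeq annotation, *Itgam* is followed by the related integrin genes *Itgax* and *Itgad*. Reads of a neighbouring integrin gene may thus be counted under *Itgam*, and the files do not allow them to be separated.

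*Tyrobp* encodes DAP12, the adaptor through which TREM2 and related receptors signal in myeloid cells. The gene (ENSRNOG00000020845) lies on chr1:88875375-88879303, on the plus strand, with 5 merged exons. *Tyrobp* had 1.35, 3.19 and 2.04 normalized CPM in libraries 1, 2 and 3, and 9.43, 8.95 and 8.09 in libraries 19, 20 and 21. It had 1.21, 1.12 and 1.72 CPM in libraries 4, 5 and 6, and 7.39, 7.24 and 7.5 in libraries 22, 23 and 24. All p60 libraries were above all p21 libraries, with little spread at p60 within either line (exact permutation p = 0.00216). The log2 fold change was 1.99 (SE 0.276, interval 1.37 to 2.61, edgeR adjusted p = 0.000296) in the immunocompetent line and 2.43 (SE 0.216, interval 1.93 to 2.92, edgeR adjusted p = 3.75e-05) in the athymic line.

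Among the activation genes, *Cd68* encodes a heavily glycosylated protein of late endosomes and lysosomes, which marks phagocytic microglia and macrophages. The gene (ENSRNOG00000037563) lies on chr10:56268720-56270640, on the minus strand, with 6 merged exons. *Cd68* had 0.793, 0.813 and 0.983 normalized CPM in libraries 1, 2 and 3, and 4.02, 3.24 and 3.92 in libraries 19, 20 and 21. It had 1.0, 1.05 and 0.766 CPM in libraries 4, 5 and 6, and 3.55, 4.01 and 4.41 in libraries 22, 23 and 24. The p21 libraries of both lines lay in one narrow range and the p60 libraries in another, with no overlap between ages (exact permutation p = 0.00216). *Cd68* rose by nearly the same amount in each line, by a log2 fold change of 2.10 (SE 0.261, interval 1.51 to 2.68, edgeR adjusted p = 0.000153) in the immunocompetent line and 2.08 (SE 0.248, interval 1.52 to 2.65, edgeR adjusted p = 0.000197) in the athymic line.

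*Lgals3* encodes galectin-3, a glycan-binding protein made by phagocytes, which also marks damaged lysosomes. The gene (ENSRNOG00000010645) lies on chr15:24141651-24165537, on the plus strand, with 7 merged exons. *Lgals3* had 1.59, 1.56 and 1.44 normalized CPM in libraries 1, 2 and 3, and 10.4, 3.62 and 7.53 in libraries 19, 20 and 21. In the athymic line it had 6.72, 0.673 and 2.04 CPM in libraries 4, 5 and 6, and 6.33, 3.65 and 9.02 in libraries 22, 23 and 24. The immunocompetent groups did not overlap, whereas the athymic groups did through library 4, which had 94 counts (exact Poisson 95% interval 76.0 to 115) against 9 in library 5 (4.12 to 17.1). Of the 6 p60 libraries, 3 were above all p21 libraries, and the exact permutation test of 6 against 6 libraries gave p = 0.0108. The share of all genes with such a count, or without overlap within a line, was not counted. *Lgals3* rose by a log2 fold change of 2.22 (SE 0.371, interval 1.38 to 3.06, edgeR adjusted p = 0.000919) in the immunocompetent line. In the athymic line the difference was 1.01 (SE 0.639, interval -0.45 to 2.47, edgeR adjusted p = 0.220), which did not pass, and without library 4 it was 2.17 (edgeR adjusted p = 0.0144). The libraries highest in *Lgals3* at their age and line, 4, 19 and 24, were also those highest in the set of 38 genes, which for library 4 follows from how the set was chosen. In the fourth group, immunocompetent p21, library 3 was highest in that set and lowest in *Lgals3*. Without these 3 libraries, *Lgals3* rose by 1.86 over both lines, and the part of that gene set in the *Lgals3* level was not tested further.

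**Figure D3:**
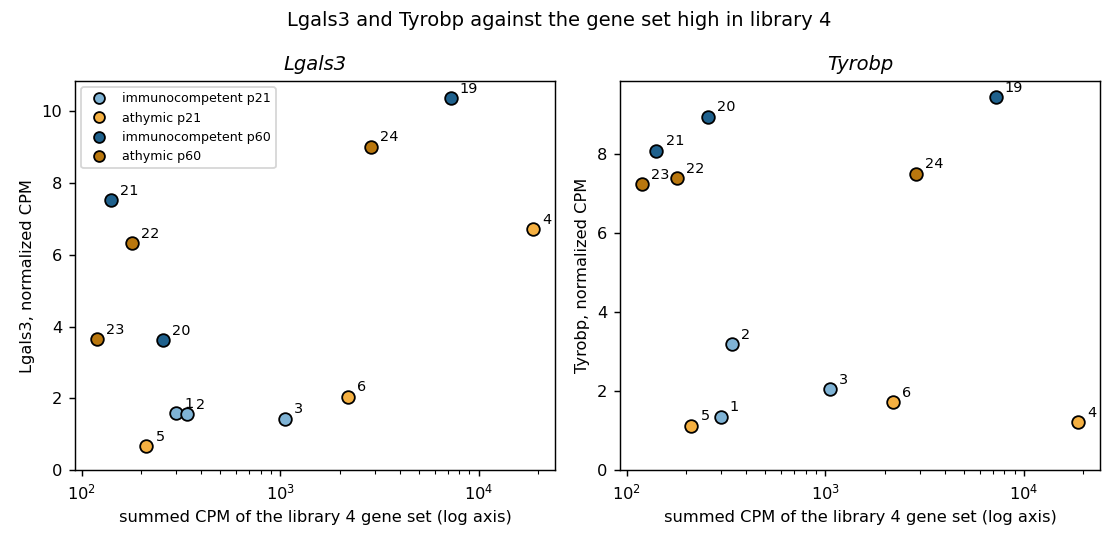
Normalized CPM of *Lgals3* and of *Tyrobp* (vertical axes) against the summed CPM of the 38 genes high in library 4 (log axis), with a point for each of the 12 libraries coloured by line and age. Library 4 lies at 18852 CPM of the set with 6.72 CPM of *Lgals3*, above the other p21 libraries, while its *Tyrobp* (1.21 CPM) lies among them.

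*Spp1* encodes osteopontin, a secreted matrix protein made by activated phagocytes and, in rodent retina, by some ganglion cells. The gene (ENSRNOG00000043451) lies on chr14:6673686-6679901, on the minus strand, with 7 merged exons. *Spp1* had 28.9, 50.7 and 47.6 normalized CPM in libraries 1, 2 and 3, and 27.8, 29.1 and 17.3 in libraries 19, 20 and 21. It had 43.9, 46.6 and 44.5 CPM in libraries 4, 5 and 6, and 17.8, 20.3 and 10.02 in libraries 22, 23 and 24. The athymic groups did not overlap, while in the immunocompetent line library 20 at p60 was as high as library 1 at p21. The share of all genes without overlap within a line was not counted. Of the 6 p60 libraries, 5 were below all p21 libraries (exact permutation p = 0.00433). All 6 were below in 20.5% of 16069 genes tested, and the share with 5 was not counted. In the immunocompetent line *Spp1* fell by 0.78 on the log2 scale (SE 0.237, interval -1.31 to -0.25, edgeR adjusted p = 0.0207), where 25.8% of the genes tested were called lower. In the athymic line it fell by 1.49 (SE 0.209, interval -1.97 to -1.02, edgeR adjusted p = 0.00049), where 24.6% were called lower. The immunocompetent call was lost when libraries were scaled to total counts (-0.59, edgeR adjusted p = 0.0692) and without library 2, 3 or 21 (edgeR adjusted p of 0.0607 to 0.0945). Genes of ganglion cells were not analysed here, so their part in the *Spp1* level was not tested.

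**Figure D4:**
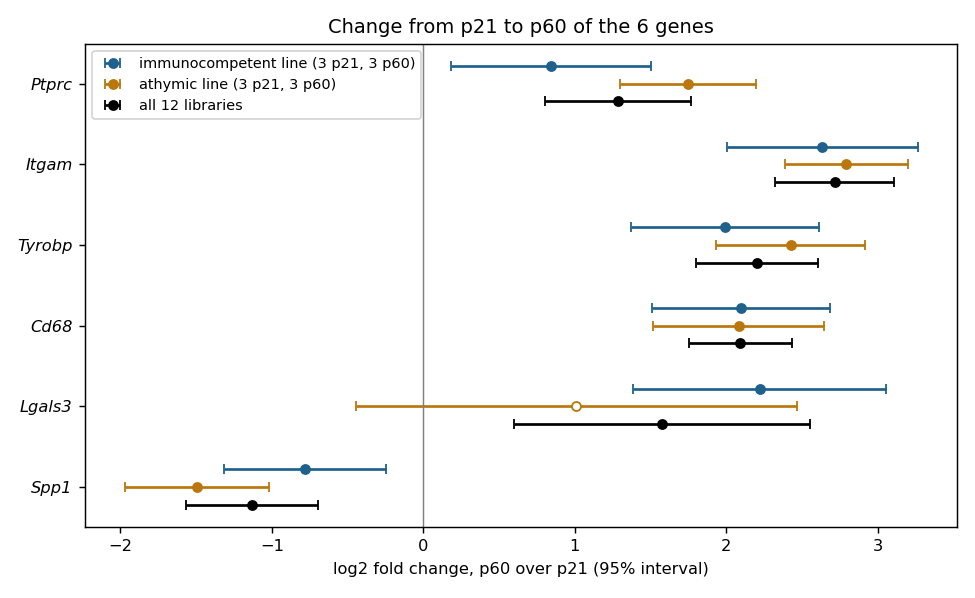
Log2 fold change from p21 to p60 of each gene in the immunocompetent line, in the athymic line and over all 12 libraries, with bars for the 95% interval and filled points where the edgeR adjusted p was under 0.05. *Lgals3* in the athymic line (1.01) is the only open point, and *Spp1* lies below 0 in each fit.

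Set side by side, the general leukocyte and the activation genes did not separate into a group that rose more and a group that rose less. The change of *Cd68* (interval 1.75 to 2.43 over all 12 libraries) lay between those of *Ptprc* (0.80 to 1.77) and *Itgam* (2.32 to 3.11) and near that of *Tyrobp* (1.80 to 2.60). *Lgals3* had a wide interval of 0.60 to 2.55, which spans most of this range. *Spp1* stood alone with an interval of -1.56 to -0.69. In the immunocompetent line all 3 leukocyte genes were called higher, as were *Cd68* and *Lgals3*, so 5 of 6 were called higher and 1 lower where 51.4% of all genes were called. In the athymic line 4 were called higher, 1 lower and *Lgals3* was not called, where 49.9% of all genes were called.

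Relative to *Ptprc*, the most general leukocyte gene, the other genes again differed. The log2 ratio of *Itgam* to *Ptprc*, taken per exonic length, rose from a mean of -0.77 (SD 0.426) in the 6 p21 libraries to 0.66 (SD 0.329) in the 6 p60 libraries, a difference of 1.43. For *Tyrobp* the ratio rose from 2.09 (SD 0.155) to 3.01 (SD 0.318), a difference of 0.93. In both, all 6 p60 ratios were above all 6 p21 ratios, which held for 0.202% of 15854 genes set against *Ptprc*, in a comparison where *Ptprc* itself rose. The ratio of *Cd68* to *Ptprc* was higher at p60 by 0.75, with 2 of 6 p60 libraries above all p21 libraries. That of *Lgals3* was higher by 0.45, with 0 of 6. Single libraries set these counts. For *Cd68* it was library 5 (0.97), since the other p21 ratios were at most 0.55 and the lowest at p60 was 0.57. For *Lgals3* it was library 4 (3.49). The next p21 ratio of *Lgals3* was 1.73, while libraries 19, 21 and 24 had 2.67, 1.96 and 2.54. The pooled values join lines with unlike values. For *Itgam* the difference was 1.80 in the immunocompetent and 1.06 in the athymic line, and for *Tyrobp* it was 1.14 and 0.72. For *Cd68* the difference was 1.16 in the immunocompetent line, where the ages did not overlap, and 0.34 in the athymic line, where they did. The share of all genes with ratios so separated within a line was not counted. For *Lgals3* it was 1.15 in the immunocompetent and -0.26 in the athymic line, where it was 0.53 without library 4. The difference between the lines in these ratios was not tested. For *Spp1* the ratio went from 5.45 to 2.94, a difference of -2.52, with all 6 libraries below, as for 49.5% of genes. It was -1.73 in the immunocompetent and -3.31 in the athymic line. Against *Itgam* or *Tyrobp* in place of *Ptprc*, the differences of *Cd68* turned to -0.68 and -0.18 and those of *Lgals3* to -0.98 and -0.48. Without library 4, a choice made after seeing the data, the pooled *Lgals3* differences were 0.87 against *Ptprc*, -0.52 against *Itgam* and -0.011 against *Tyrobp*. The sign of the pooled difference thus changed with the leukocyte gene chosen for *Cd68* and *Lgals3*, more so against *Itgam*, whose gene model is uncertain. For *Cd68* against *Tyrobp* the difference was smaller than the p21 SD of 0.676. In the immunocompetent line the p60 ratios (-2.51 to -2.09) lay within the p21 range (-3.01 to -1.81). So did those of the athymic line (-2.10 to -1.81 within -2.21 to -1.14). For *Lgals3* against *Tyrobp* without library 4, the difference was 0.009 in the immunocompetent and -0.070 in the athymic line. *Spp1* had a lower ratio at p60 to each of the 3 leukocyte genes.

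Levels were also compared between the genes as FPKM, here normalized CPM per kilobase of exon, over the 6 libraries of each age (mean ± SD, n = 6). At p21 *Spp1* led with 28.8 ± 5.03 FPKM, followed by *Tyrobp* with 2.94 ± 1.28 and *Lgals3* with 2.15 ± 2.02. *Cd68* had 0.726 ± 0.0987, *Ptprc* 0.697 ± 0.321 and *Itgam* 0.400 ± 0.160 FPKM. Without library 4 (6.18 FPKM), *Lgals3* averaged 1.34 ± 0.457 FPKM (n = 5), a comparison added after seeing the data. The pooled order of *Tyrobp* and *Lgals3*, and that of *Cd68* and *Ptprc*, was within the spread between libraries. *Tyrobp* was above *Lgals3* in every p21 library except library 4. *Cd68* had 0.696 ± 0.0839 and *Ptprc* 0.877 ± 0.394 FPKM in the immunocompetent line. In the athymic line they had 0.756 ± 0.121 and 0.517 ± 0.0763, with *Cd68* higher in each library. At p60 *Spp1* (13.4 ± 4.70) and *Tyrobp* (13.4 ± 1.5) had the same mean over both lines, ahead of *Lgals3* (6.21 ± 2.55). Within the lines their order differed, with *Spp1* at 16.3 ± 4.26 and *Tyrobp* at 14.6 ± 1.13 FPKM in the immunocompetent line and *Spp1* at 10.5 ± 3.51 and *Tyrobp* at 12.2 ± 0.221 in the athymic line (n = 3), gaps smaller than the SD of *Spp1*. *Cd68* then had 3.11 ± 0.331, *Itgam* 2.64 ± 0.402 and *Ptprc* 1.67 ± 0.228 FPKM. In the immunocompetent line *Cd68* (3.00 ± 0.345) and *Itgam* (2.87 ± 0.395) were close for their spread. In the athymic line *Cd68* (3.22 ± 0.349) lay above *Itgam* (2.41 ± 0.291) in each library. Among the 16069 genes, *Tyrobp* moved from above 25.7% of them to above 57.2%, and *Cd68* from above 9.83% to above 25%. *Spp1* moved the other way, from above 77.0% to above 57.2%. The *Itgam* level divides by the length of both exon blocks and would differ if they belong to separate genes.

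**Figure D5:**
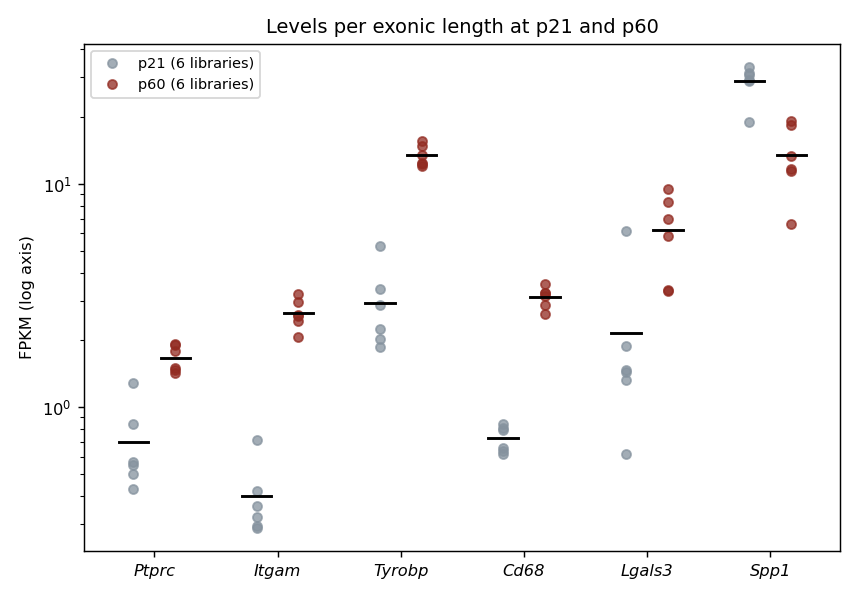
FPKM of the 6 genes (log axis) in each of the 6 libraries at p21 and the 6 at p60, with a line at the mean. *Spp1* lies above the other 5 genes at p21 (28.8 FPKM) and at the same mean as *Tyrobp* at p60 (13.4 FPKM over both lines).

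The athymic and immunocompetent lines were then compared, although the athymic variant and labelled sex cannot be told apart in this contrast. Of the 6 genes, 0 differed in their age change between the lines by edgeR's interaction test with Benjamini-Hochberg adjustment, 1 had an unadjusted p under 0.05 and DESeq2 called 0 of them among 146 genes in all. By edgeR, 0.00622% of 16069 genes were called and 9.30% at an unadjusted p under 0.05. The gene with an unadjusted p under 0.05 was *Ptprc*, whose rise was larger in the athymic line by 0.91 on the log2 scale (SE 0.381, interval 0.08 to 1.73, edgeR adjusted p = 0.482). For *Ptprc* it was 0.50 (SE 0.318, edgeR adjusted p = 0.783) without library 2. For *Spp1* the difference was -0.71 (SE 0.359, interval -1.48 to 0.07) and for *Lgals3* it was -1.22 (SE 0.857, interval -3.07 to 0.64). The *Lgals3* value depended on the libraries used. It was -0.062 without library 4, -0.023 without libraries 4, 19 and 24 and -0.60 without libraries 4, 5 and 22. *Tyrobp* differed by 0.44 (SE 0.360), *Itgam* by 0.16 (SE 0.363) and *Cd68* by -0.01 (SE 0.314). Without library 2, *Tyrobp* differed by 0.041 and *Itgam* by -0.34. *Spp1* differed by -0.46 without library 24. Libraries 4, 5 and 22, labelled female, had chromosome Y counts like those of males. Leaving them out keeps library 6 alone in the athymic p21 group. The interaction was then 0.70 for *Ptprc*, 0.099 for *Tyrobp*, -0.18 for *Itgam*, 0.35 for *Cd68* and -0.77 for *Spp1*.

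At p21, 0 of the 6 genes differed between the lines by edgeR's adjusted p, where 0% of 15225 genes did (12.7% at an unadjusted p under 0.05), and DESeq2 also called 0 of the 6, among 140 genes in all. *Ptprc* alone had an unadjusted p under 0.05, being lower in the athymic line by 0.76 on the log2 scale (SE 0.331, edgeR adjusted p = 0.378). At that age *Ptprc* averaged 4.43 ± 1.99 CPM in the immunocompetent and 2.61 ± 0.385 in the athymic line (SD, n = 3). *Tyrobp* was next with -0.69 (edgeR adjusted p = 0.469). Library 2 held the highest p21 level of *Ptprc*, *Itgam*, *Tyrobp* and *Spp1*, and without it the difference was -0.37 (SE 0.319) for *Ptprc*, -0.32 (SE 0.391) for *Tyrobp* and 0.072 for *Itgam*. *Lgals3* differed by 1.04 (SE 0.643) with library 4 and by -0.14 without it. At p60, 0 of the 6 genes differed by edgeR's adjusted p, where 0.0193% of 15557 genes did (9.40% at an unadjusted p under 0.05), and 0 had an unadjusted p under 0.05 or were called by DESeq2, which called 106 genes in all. *Spp1* had the widest gap there, with 24.7 ± 6.48 CPM in the immunocompetent and 16.02 ± 5.34 in the athymic line (log2 difference -0.63, SE 0.276, interval -1.26 to 0.01, edgeR adjusted p = 0.539), which was -0.39 without library 24. Because 3 of the 6 athymic libraries carried chromosome Y counts like those of males, the labelled sex cannot be read as the sex of those libraries. Without libraries 4, 5 and 22, which leaves library 6 alone in the athymic p21 group, the changes with age over both lines were 2.58 for *Itgam*, 2.20 for *Cd68*, 2.03 for *Lgals3*, 2.02 for *Tyrobp*, 1.05 for *Ptprc* and -1.02 for *Spp1*, all still passing edgeR's test.

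The variation of the genes between libraries of a group was compared next. Over the 12 libraries, deviations from the group mean on the log2 scale had a Pearson r of 0.819 for *Ptprc* and *Tyrobp*, 0.678 for *Itgam* and *Tyrobp* and 0.564 for *Itgam* and *Ptprc*. *Spp1* had an r of 0.539 with *Ptprc*, 0.474 with *Tyrobp* and -0.011 with *Itgam*, whereas *Cd68* and *Itgam* had -0.478. Taken by age, a split made after seeing the data, *Ptprc* and *Tyrobp* had an r of 0.944 over the 6 p21 libraries and -0.619 over the 6 p60 libraries. *Itgam* and *Tyrobp* had 0.776 at p21 and -0.533 at p60, and *Itgam* and *Ptprc* had 0.656 and -0.0021. The activation gene *Spp1* had an r of 0.852 with *Ptprc*, 0.774 with *Tyrobp* and 0.359 with *Itgam* at p21. Those with *Ptprc* and *Tyrobp* were within the range of the leukocyte pairs, and that with *Itgam* was below it. At p60 they were 0.332, 0.382 and -0.639. The difference between the ages was not tested. These are descriptions over few points that share depth and scaling. Within the immunocompetent p21 group, library 2 was highest and library 1 lowest for both *Ptprc* and *Tyrobp*. The mean of the 6 genes' standardized values kept *Spp1*, which fell, with its sign, so it is not the pattern of the genes that rose. This mean was followed most closely by 2 genes without a name in the files, judged by Pearson's r over the 12 libraries among 14788 genes. The first, ENSRNOG00000006908 on chr5:36681528-36683356, had an r of 0.988 (0.881 for the deviations from the group means) and rose from 21 to 41 counts at p21 to 70 to 79 at p60 (log2 fold change 1.07, SE 0.145, edgeR adjusted p = 1.95e-05). The second, ENSRNOG00000024454 on chr14:60857989-60952088, had an r of 0.977 (0.761 for the deviations) and went from 176 to 252 counts to 323 to 391. An r of at least 0.9 was reached by 996 genes (6.74%), and the part of the shared change with age in these values was not tested.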

How the data were processed

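RNA-seq libraries were made from polyA RNA of whole retinas. The authors aligned the reads and counted them per gene, and deposited raw counts for each of the 12 libraries. The submitters' processing notes name STAR 2.5.2b, Subread 1.5.2 with featureCounts, and the Rnor_6.0 genome. The strand setting and the treatment of reads with several positions were not given in the sources used here, so reads shared with related or antisense genes could not be checked.

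Counts were analysed in R 4.3.3 by edgeR 4.0.16 (with DESeq2 1.42.0 as an alternative), and in Python 3.11.15, scipy 1.17.1 and matplotlib 3.10.9. Genes were kept by filterByExpr (minimum count 10, minimum total 15), and libraries were scaled by TMM. The edgeR quasi-likelihood test with Benjamini-Hochberg adjustment over all genes (threshold 0.05) was run within each line, over all 12 libraries with line as a covariate, for the interaction, and between the lines at each age. Log2 values of single genes (prior count of 2) were compared by two-sided exact permutation tests, for which 3 against 3 libraries cannot go below p = 0.1. Pairs of libraries within a group differed by more than sampling noise, with a chi-square per degree of freedom of 3.93 to 22.7. The code was tested on simulated data.

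All 6 genes are described, and the genes named for likeness were those of highest r. The genes, lists and tests were chosen with earlier results of these data known. A further 14 lists of 204 gene symbols (cell type markers and pathways) could not be matched to the identifiers and are not analysed here.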

Additional observations from a re-analysis of the deposited data

Results flagged for a closer look

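In 3 of 12 sets of 6 libraries of one age, 1 library lay far from the other 5, with a gap to its neighbour that took more of the whole range than Dixon's limit for 6 values. Chance gives this in about 1 of 20 sets. *Itgam* had 5.29 normalized CPM in library 2, above the other p21 libraries (2.14 to 3.13 CPM), and that library was also the highest at p21 for *Ptprc*, *Tyrobp* and *Spp1*. *Spp1* had 28.9 CPM in library 1, below the other p21 libraries (43.9 to 50.7 CPM). *Lgals3* had 6.72 CPM in library 4, above the other p21 libraries (0.673 to 2.04 CPM).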

How the results depend on the processing

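Over all 12 libraries, the 6 genes kept their direction and call under every alternative run: DESeq2, scaling to total counts, other filters, leaving out each library, and leaving out libraries 4, 5 and 22 or 4, 19 and 24. Scaling to total counts shifted the median over all genes by 0.19 (log2). Under it *Spp1* in the immunocompetent line no longer passed (-0.59), and FPKM moved beyond the spread for *Lgals3* in immunocompetent p21 (1.31), *Spp1* in athymic p21 (27.8) and *Tyrobp* in athymic p60 libraries (13.05). Leaving out 1 library at a time gave 0.58 to 1.24 for *Ptprc* and -0.98 to -0.57 for *Spp1* in the immunocompetent line, and 0.54 to 2.17 for *Lgals3* in the athymic line, which passed without library 4 and also without libraries 4 and 24 (1.82), but not in the model of all 4 groups without libraries 4, 5 and 22 (1.63, edgeR adjusted p = 0.102), both chosen after seeing the data. Without 4, 5 and 22 the athymic p21 group is library 6 alone, assumed to vary like the other groups. Signs turned when 1 library was left out for the interaction of *Cd68* (-0.16 to 0.071) and *Itgam* (-0.34 to 0.37), for the line difference at p21 of *Itgam* (-0.64 to 0.072), *Lgals3* (-0.14 to 1.52) and *Spp1* (-0.12 to 0.24), and for that of *Lgals3* at p60 (-0.53 to 0.19), none of which passed. The *Cd68* interaction was also above 0 without a filter (0.0038), without libraries 4, 19 and 24 (0.017) and without 4, 5 and 22 (0.35), where that of *Itgam* was -0.11 and -0.18. Ratios to *Itgam* and to *Tyrobp* gave -0.68 and -0.18 for *Cd68*, -0.98 and -0.48 for *Lgals3*, and -3.95 and -3.44 for *Spp1*. The causes were not tested.

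Counts of genes called moved most where few were called. DESeq2 called 146 genes for the interaction against 1 by edgeR, 140 against 0 for the lines at p21, and 106 against 3 at p60. Without a filter edgeR called 115, 282 and 11, and with 1 library left out 138, 85 and 61 at most. In a model of all 4 groups, the age change of the athymic line called 7937 genes, and 4218 without libraries 4, 5 and 22, with library 6 alone at p21, against 7740 in the line alone. Requiring 10 counts in every library left *Lgals3* untested wherever library 5 took part. No paired analysis was possible because no library number occurs in more than 1 group.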
